A study of Mus musculus with 30 samples.

Results

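The levels of 10 genes known from adipocytes were followed through all libraries of the small bowel *muscularis externa* (*ME*), *Adipoq*, *Plin1*, *Lep*, *Cidec*, *Cfd*, *Retn*, *Lpl*, *Fabp4*, *Pck1* and *Ucp1*. They were chosen by name as markers and effectors of fat cells, and all 10 are among the 24601 genes of the *ME* count table and among the genes of the joined *RiboTag* tables. *Adrb3*, the β3-adrenergic receptor, which adipocytes use in lipolysis, was set beside them because the study asks how adrenergic signals reach enteric glia. Adipocytes store triglyceride in lipid droplets and release hormones such as adiponectin and leptin. They take up fatty acids that lipoprotein lipase frees from circulating fat, and noradrenaline makes them break the store down again. Fat of the mesentery borders the small bowel along its attachment, so RNA of the stripped muscle layer can hold RNA of fat cells as well as of muscle, glia and immune cells.

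Total *ME* RNA was sequenced in 3 libraries of naïve mice and in 3, 4 and 4 libraries at IM3h, IM24h and IM72h, named by the hours since intestinal manipulation (IM), a surgical model of postoperative ileus. The labels give the naïve and IM3h mice of this fraction as *B6.Cg-Tg73.12Mvs/J(Gfap-cre)* crossed with *Rpl22tm1.1Psam/J* and the IM24h and IM72h mice as *Tg(Sox10-icre/ERT2)388Wdr/J* crossed with the same *Rpl22* line. *RiboTag* RNA, bound to HA-tagged ribosomes, came from the *Sox10-icre/ERT2* cross at all time points, with 3 naïve libraries in the tables and 4 each at IM3h, IM24h and IM72h. The tag is made only in cells with Cre activity, here *Sox10*-expressing glia after tamoxifen. As labelled, the mouse line changed together with time in the *ME*, so that effects of line and of time after IM at 24 h and 72 h cannot be told apart there, and the label was not checked against the counts. Names of the *ME* libraries also fall into separate number ranges for naïve with IM3h, for IM24h and for IM72h. The study counts its samples as mice, but library names cannot be matched to samples, and p-values measure the spread between these libraries.

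Total counts were 6603170 to 12866062 in the *ME* and 3010306 to 7899492 in the *RiboTag* libraries. One rRNA-related transcript, *AY036118*, took 16.1% to 33.5% of the counts in the naïve and IM3h *ME* libraries, 1.33% to 6.50% at IM24h and IM72h, and 22.2% to 80.1% in the *RiboTag* libraries of these later times. Of 9 glial markers, 8 were higher in naïve *RiboTag* than in naïve *ME* RNA, with a median log2 difference of 3.26, against 13.4% of all genes called higher. Of 8 smooth muscle markers 6 were lower, against 12.7% of all genes. The libraries thus match their labels in the naïve state. At IM24h 4 of 7 tested glial markers were higher and 0 lower in *RiboTag* RNA, with 895 of all 14680 genes called higher. At IM72h 1 of 7 was higher and 1 lower, with 4.2% and 26.5% of all genes called higher and lower.

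Promoters of *Adipoq*, *Plin1*, *Lep* and *Cidec* are shown first, from 250 bases before to 50 bases after the start site. RefSeq gives them for GRCm38.p6 (mm10), and they were picked for having or lacking the letters below, not for their change after IM. An entry was found for 8 of the 10 genes, and *Lpl*, *Fabp4* and *Adrb3* have none. Capitals mark the letters TTGCNNAA, searched on both strands, the core recognised by C/EBP factors, which drive adipocyte differentiation. *Cidec* has 2 promoters in the table. The letters stand in 3 of the 9 promoters, 1 each of *Plin1*, *Lep* and *Cidec*, and in 10.8% of all 32851 promoters in the table. The promoter of *Adipoq* is printed beside them as one without these letters.
*Adipoq*, chr16:23146286-23146585, plus strand: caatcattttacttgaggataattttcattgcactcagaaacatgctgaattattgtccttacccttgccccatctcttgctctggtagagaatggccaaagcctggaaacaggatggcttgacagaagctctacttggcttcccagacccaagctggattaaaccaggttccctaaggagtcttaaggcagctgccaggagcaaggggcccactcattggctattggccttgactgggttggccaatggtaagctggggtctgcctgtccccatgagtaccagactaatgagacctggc
*Plin1*, chr7:79732727-79733026, minus strand: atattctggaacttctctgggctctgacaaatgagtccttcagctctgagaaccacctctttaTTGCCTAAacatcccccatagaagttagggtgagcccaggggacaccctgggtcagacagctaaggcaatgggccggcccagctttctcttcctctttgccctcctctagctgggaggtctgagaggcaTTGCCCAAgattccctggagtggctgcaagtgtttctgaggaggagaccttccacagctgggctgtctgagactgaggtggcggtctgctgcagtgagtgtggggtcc
*Lep*, chr6:29059971-29060270, plus strand: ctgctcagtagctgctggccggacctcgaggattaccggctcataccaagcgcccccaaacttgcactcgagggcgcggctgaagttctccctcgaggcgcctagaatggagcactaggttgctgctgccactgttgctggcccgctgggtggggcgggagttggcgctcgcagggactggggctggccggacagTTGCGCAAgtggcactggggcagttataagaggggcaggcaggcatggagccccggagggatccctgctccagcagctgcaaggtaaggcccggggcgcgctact
*Cidec*, chr6:113434715-113435014, minus strand: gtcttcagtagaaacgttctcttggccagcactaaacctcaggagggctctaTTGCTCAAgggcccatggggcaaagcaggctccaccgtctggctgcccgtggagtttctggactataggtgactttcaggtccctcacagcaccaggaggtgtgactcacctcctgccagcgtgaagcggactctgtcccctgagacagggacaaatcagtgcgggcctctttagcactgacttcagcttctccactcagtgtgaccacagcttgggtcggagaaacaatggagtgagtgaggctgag
*Plin1* has 2 matches, 187 and 58 bases before the start site, *Lep* has 1 at 55 bases and *Cidec* 1 at 198 bases. A match is a run of letters and says nothing of binding in these mice. The second *Cidec* promoter of the table holds none.

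The main result lies in the *ME*. At IM3h 0 of the 9 genes that could be tested was called against naïve mice in edgeR, with 32.7% of all 15333 genes called in either direction. Of the 9, 1 had an unadjusted p under 0.05 and DESeq2 called 1, in both cases *Pck1*. At IM24h 9 of 9 were lower, with 13.4% of all genes called lower, and at IM72h 8 of 9 were lower, with 28.3% of all genes called lower. A gene is called here at a Benjamini-Hochberg adjusted p under 0.05 in the quasi-likelihood test of edgeR, over all genes tested. The median log2 change of the 9 genes was -0.15 at IM3h, -2.53 at IM24h and -2.06 at IM72h, while the median of all genes was 0.02 at both later times. *Lep*, *Retn* and *Pck1* at IM24h and *Lep* at IM72h passed the filter on low counts only through the naïve libraries, where they are high, so nothing is read from their part in these counts. Of the other genes, 6 of 6 were called lower at IM24h and 7 of 8 at IM72h, with medians of -2.16 and -1.93. For these 6 genes at IM24h and these 7 at IM72h, all libraries of that time lay below all naïve libraries, as in 20.7% and 28.7% of all genes. *Ucp1* had 22 counts or fewer in every *ME* library and passed no filter on low counts. In bulk RNA, fewer cells of a type and less RNA per cell cannot be told apart.

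**Figure D1:**
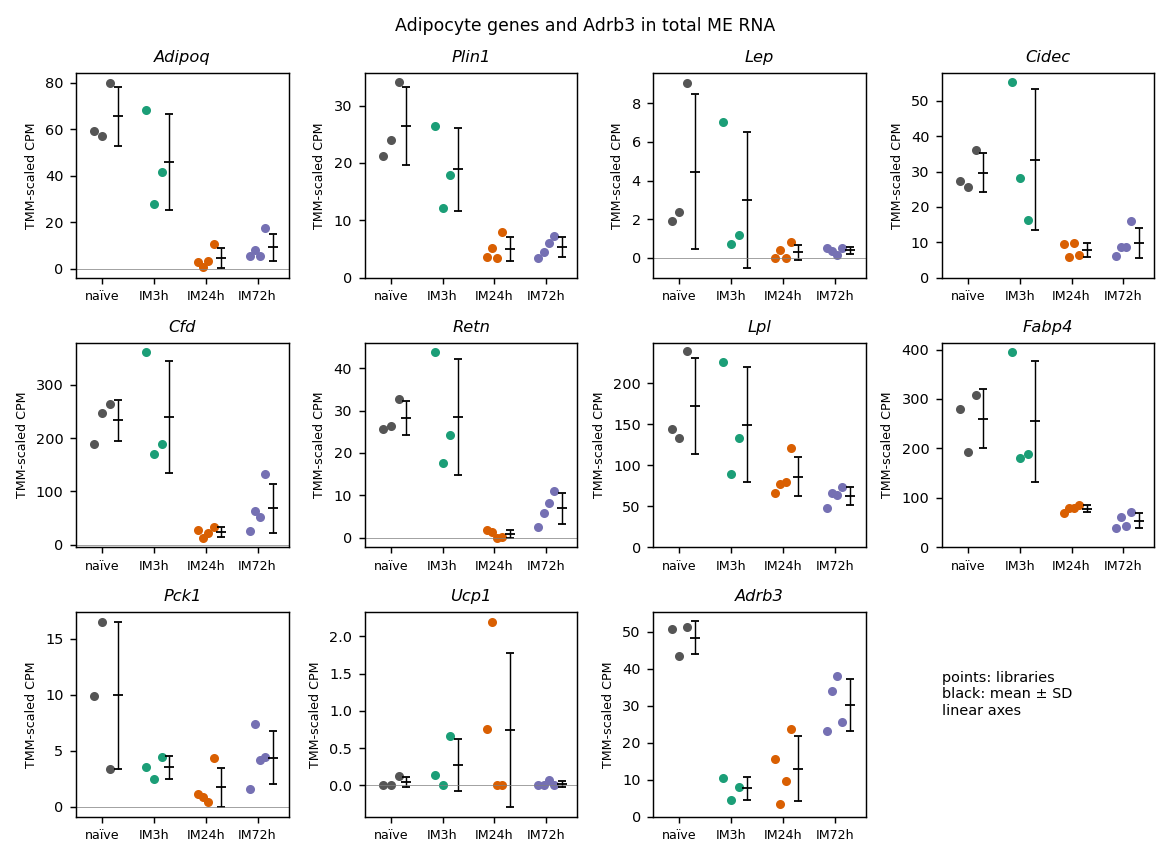
Levels of the 10 adipocyte genes and *Adrb3* in each total *ME* library (TMM-scaled CPM, linear axes) for naïve mice, IM3h, IM24h and IM72h; points are libraries and black bars the mean ± SD. Except for *Pck1* and *Ucp1*, every IM24h and IM72h library of the adipocyte genes lies below the lowest naïve library.

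Among the hormones, *Adipoq* (ENSMUSG00000022878.5, chr16:23146536-23158028), which encodes adiponectin, stood at 59.4, 57.2 and 80.0 CPM (counts per library of fixed size, scaled by TMM) in the naïve libraries and at 68.4, 27.7 and 41.5 at IM3h. It stood at 3.01, 0.899, 3.27 and 10.8 CPM at IM24h and at 5.45, 8.19, 5.50 and 17.6 at IM72h. The naïve and IM3h libraries overlapped, and all 8 later libraries lay below all 6 earlier ones. The change was 14.8-fold lower at IM24h (log2 -3.89, SE 0.57, adjusted p = 0.000895) and 7.21-fold lower at IM72h (log2 -2.85, SE 0.35, adjusted p = 5.13e-05). Without IM24h library 4 the log2 change at IM24h was -4.76. At IM3h the log2 value was -0.46 (SE 0.28, adjusted p = 0.241). The number of counts behind these values ranged from 188 to 662 in the 6 earlier libraries and from 9 to 271 in the later ones.

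*Lep* encodes leptin, the satiety hormone of fat, and was the weakest signal of the 9. It had 16, 11 and 75 counts in the naïve libraries, 50, 5 and 7 at IM3h, then 0, 4, 0 and 7 at IM24h and 6, 5, 2 and 8 at IM72h. Every later library had fewer counts than every naïve library. In scaled CPM, IM3h library 2 (0.736) lay within the range of the later ones, whose highest was 0.803, and IM3h library 3 (1.16) above it. The fitted log2 change was -3.90 at IM24h (SE 1.14, adjusted p = 0.0271) and -3.54 at IM72h (SE 0.61, adjusted p = 0.000538). Both are a description, since *Lep* passed the filter on low counts at these times only through the naïve libraries. The call at IM24h rested on the naïve libraries, since the adjusted p was 0.0537 without naïve library 2 and 0.235 without naïve library 3. Without naïve library 3 the log2 change was -2.81 at IM24h and -2.45 at IM72h, and without IM24h library 4 it was -4.99 at IM24h.

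*Retn* encodes the fat hormone resistin. It stood at 25.6, 26.4 and 32.9 CPM in naïve mice, 43.9, 17.5 and 24.2 at IM3h, then 1.88, 1.199, 0 and 0.115 at IM24h and 2.52, 5.78, 8.14 and 11.03 at IM72h. The IM24h libraries lay below the IM72h libraries without overlap, and the latter below the naïve libraries. It was 34.5-fold lower at IM24h (log2 -5.11, SE 0.72, adjusted p = 0.000716) and 4.17-fold lower at IM72h (log2 -2.06, SE 0.35, adjusted p = 0.000444). At IM24h it passed the filter on low counts only through the naïve libraries, so the IM24h change is a description. Without IM24h library 1 the log2 change at IM24h was -5.97.

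*Cfd* encodes adipsin, the complement factor D protease that fat releases. It stood at 190, 246 and 264 CPM in naïve mice and at 362, 170 and 189 at IM3h. It stood at 27.5, 12.8, 22.0 and 33.8 CPM at IM24h and at 25.004, 62.8, 52.7 and 132 at IM72h. Both later groups lay below the naïve libraries without overlap, and IM72h library 4 lay well above the other 3. The change was 9.73-fold lower at IM24h (log2 -3.28, SE 0.29, adjusted p = 9.07e-05) and 3.48-fold lower at IM72h (log2 -1.80, SE 0.40, adjusted p = 0.00289).

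Of the 2 proteins of the lipid droplet surface, *Plin1* (ENSMUSG00000030546.14, chr7:79720218-79732903), which encodes perilipin 1, the coat that guards the stored fat from lipases, stood at 21.2, 24.1 and 34.1 CPM in naïve mice and 26.4, 12.2 and 17.9 at IM3h. It stood at 3.57, 5.10, 3.36 and 8.03 CPM at IM24h and 3.36, 4.43, 6.10 and 7.33 at IM72h. These later values overlapped each other and no earlier library, with a 5.31-fold lower level at IM24h (log2 -2.41, SE 0.34, adjusted p = 0.000721) and a 5.06-fold lower level at IM72h (log2 -2.34, SE 0.26, adjusted p = 2.64e-05). *Cidec*, whose product fuses droplets into larger ones, stood at 27.4, 25.6 and 36.0 CPM in naïve mice, 55.3, 28.3 and 16.4 at IM3h, then 9.50, 5.89, 9.73 and 6.42 at IM24h and 6.13, 8.64, 8.59 and 16.1 at IM72h. It was 3.77-fold lower at IM24h (log2 -1.92, SE 0.25, adjusted p = 0.000500) and 3.06-fold lower at IM72h (log2 -1.61, SE 0.28, adjusted p = 0.000511). The 3 IM3h libraries of *Cidec* spread on both sides of the naïve range.

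*Lpl* and *Fabp4* serve fatty acid uptake and are not particular to fat, since capillary endothelium also uses both. *Lpl*, lipoprotein lipase, stood at 145, 133 and 240 CPM in naïve mice, 227, 89.0 and 134 at IM3h, then 66.3, 77.2, 79.5 and 121 at IM24h and 47.7, 65.9, 63.6 and 73.2 at IM72h. It had the smallest fall at IM24h, 2.01-fold (log2 -1.01, SE 0.26, adjusted p = 0.0162), and was 2.82-fold lower at IM72h (log2 -1.50, SE 0.21, adjusted p = 0.000124). *Fabp4*, the fatty acid carrier of the adipocyte cytoplasm, stood at 280, 194 and 307 CPM in naïve mice, 396, 180 and 188 at IM3h, then 68.7, 78.5, 80.3 and 85.4 at IM24h and 38.3, 62.0, 43.7 and 70.5 at IM72h. The 4 IM24h libraries of *Fabp4* lay close together, and the fall was 3.34-fold (log2 -1.74, SE 0.19, adjusted p = 0.000211), against 4.95-fold at IM72h (log2 -2.31, SE 0.22, adjusted p = 1.08e-05). No endothelial marker was called lower at either time, and 3 of 8 rose at IM24h and 6 of 8 at IM72h, beside 15.6% and 29.3% of all genes called higher. The part of endothelium in the levels of *Lpl* and *Fabp4* was not tested. When libraries were scaled by their total, which shifts the median of all genes by 0.64 at IM24h, the log2 change of *Lpl* at IM24h was -0.40 (adjusted p = 0.294). Without naïve library 3 it was -0.70 (adjusted p = 0.0892).

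*Pck1*, the enzyme with which fat makes glycerol phosphate and which epithelium also uses, was the exception among the 9. It stood at 9.90, 16.5 and 3.38 CPM in naïve mice, 3.52, 2.504 and 4.48 at IM3h, then 1.13, 0.899, 0.455 and 4.36 at IM24h and 1.59, 7.36, 4.14 and 4.41 at IM72h. Naïve libraries overlapped those of all other groups, with naïve library 3 the lowest. The log2 value was -1.43 at IM3h (SE 0.51, adjusted p = 0.0564), -2.53 at IM24h (SE 0.76, adjusted p = 0.0297) and -1.16 at IM72h (SE 0.51, adjusted p = 0.0723). The IM24h value is a description, since *Pck1* passed the filter on low counts there only through the naïve libraries. The call at IM24h was lost without naïve library 1 or 2 or without IM24h library 1, 2 or 3, with an adjusted p of 0.0590 to 0.152, and without IM24h library 4 the log2 value was -3.56. At IM72h *Pck1* was called without naïve library 3 (adjusted p = 0.0129) or IM72h library 2 (adjusted p = 0.0346). Summed epithelial markers ranged from 156 to 427 CPM in naïve mice, 82.7 to 207 at IM24h and 332 to 743 at IM72h, and their part in *Pck1* was not tested.

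*Ucp1*, the uncoupling protein of brown and beige fat, had 0, 0 and 1 counts in naïve mice, 1, 0 and 4 at IM3h, then 8, 22, 0 and 0 at IM24h and 0, 0, 1 and 0 at IM72h. These counts allow no statement on a change. Of the other brown and beige fat genes, 4 of 7 were lower and 0 higher at IM24h, against 13.4% of all genes called lower, with *Cidea* the largest fall (log2 -2.74, adjusted p = 0.0365). At IM72h 5 of 8 were lower and 1 higher, against 28.3% of all genes called lower.

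Within a group, most of the genes had their highest level in the same library. Naïve library 3 was the highest of its group for 9 of the 10 genes, IM3h library 1 for 8, IM24h library 4 for 7 and IM72h library 4 for 8. Libraries of 1 group thus differed in most of these genes at once, and the 10 genes are not 10 independent measurements. Without IM3h library 1, *Adipoq* (log2 -0.89, adjusted p = 0.0131) and *Plin1* (log2 -0.78, adjusted p = 0.0496) were called lower at IM3h. With *Actb*, *Hsp90ab1* and *Rplp1* as the scale, which moves the median of all genes at IM3h by -0.41, *Adipoq*, *Plin1* and *Pck1* were called lower there.

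**Figure D2:**
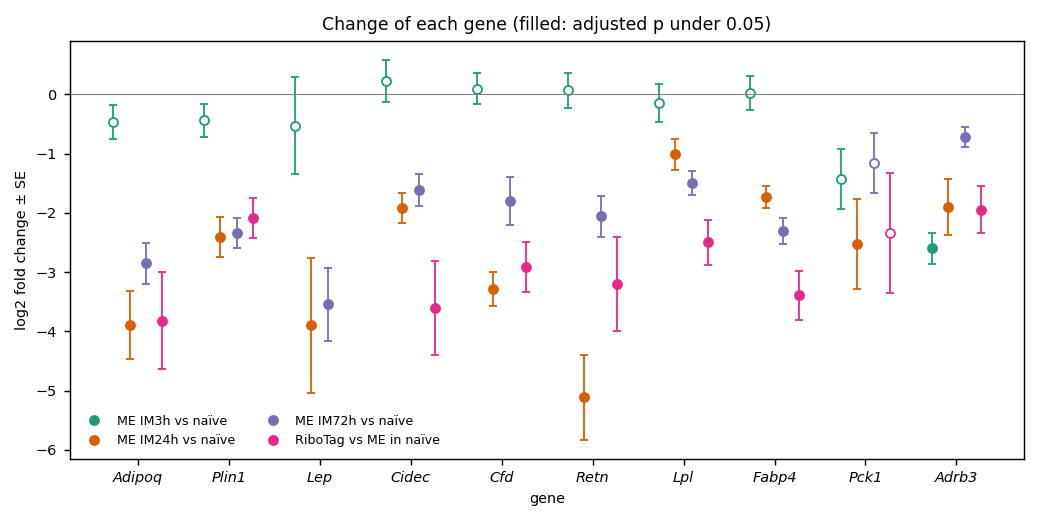
Log2 fold change ± SE of each gene in the *ME* at IM3h, IM24h and IM72h against naïve mice and in naïve *RiboTag* against naïve *ME* RNA; filled points have an adjusted p under 0.05. All filled points lie below 0, and at IM3h the only filled point is *Adrb3* at -2.60.

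From 24 h to 72 h the *ME* libraries came from 1 mouse line, and 8 genes could be tested. *Retn* was 8.23-fold higher at IM72h than at IM24h (log2 3.04, SE 0.85, adjusted p = 0.0159) and *Cfd* 2.79-fold higher (log2 1.48, SE 0.44, adjusted p = 0.0219). *Fabp4* was 1.49-fold lower (log2 -0.58, SE 0.19, adjusted p = 0.0362). *Retn* passed the filter only through the IM72h libraries, and its call is a description. Over all genes, 18.6% were called higher and 19.9% lower. The other 5 were not called, with *Adipoq* at 1.02 (SE 0.63, adjusted p = 0.229) and *Plin1* at 0.06 (SE 0.38, adjusted p = 0.923). The calls of *Cfd* (adjusted p = 0.0644) and *Retn* (adjusted p = 0.0531) were lost without IM72h library 4, and that of *Cfd* also without IM24h library 3 (adjusted p = 0.0609). The call of *Fabp4* was lost without any one of IM24h libraries 2, 3 and 4 or IM72h libraries 1, 2 and 3, with an adjusted p of 0.0547 to 0.123. Without IM24h library 4, *Adipoq* (log2 1.91, adjusted p = 0.0171) and *Pck1* (log2 2.36, adjusted p = 0.00888) were called higher at IM72h. Without IM24h library 1, *Lpl* was called lower (log2 -0.61, adjusted p = 0.0425) and *Retn* was at 3.89. The 2 groups fall into different number ranges of library names.

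Other genes of fat metabolism were grouped by role. Over all genes, 19.3% were called higher and 13.4% lower at IM3h, 15.6% higher at IM24h and 29.3% higher at IM72h. Genes that passed the filter on low counts only through the group where they are high were not set apart in these lists. Of 12 genes for glucose use and fatty acid synthesis, 10 were lower and 0 higher at IM24h, with a median log2 change of -1.46, and again 10 lower and 0 higher at IM72h, with a median of -1.21. The largest fall was that of *Thrsp*, a regulator of lipogenesis, at IM24h (log2 -6.00, adjusted p = 6.09e-05) and of *Scd1*, the stearoyl-CoA desaturase, at IM72h (log2 -2.94, adjusted p = 1.50e-06). At IM3h 3 of 11 were lower and 0 higher, *Scd2* furthest (log2 -1.20, adjusted p = 0.00243).

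Genes of fatty acid uptake and triglyceride synthesis split, with 8 of 15 lower and 2 higher at IM24h and 7 lower and 2 higher at IM72h. *Dgat2*, which makes triglyceride, had the largest fall at both times (log2 -3.54 and -3.19). *Angptl4*, an inhibitor of lipoprotein lipase, rose at IM3h by 2.56 (adjusted p = 0.000411) and at IM24h by 2.40 (adjusted p = 0.00838). Of the lipid droplet and lipolysis genes, 5 of 12 were lower and 1 higher at IM24h, where *Aqp7*, the glycerol channel of fat, had a log2 change of -2.97 (adjusted p = 0.0179) and *Plin2*, the droplet coat of most cell types, one of 1.44 (adjusted p = 0.00653). At IM3h 2 of 13 were lower and 3 higher, and at IM72h 4 of 13 were lower and 2 higher, beside 28.3% of all genes called lower. *Plin2* was also higher at IM72h (log2 1.53, adjusted p = 8.55e-05), the opposite direction to *Plin1*.

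Transcription factors of adipocyte differentiation split, with 2 of 10 lower and 2 higher at each time. Their summed level was 112 to 138 CPM in naïve mice, 1072 to 1309 at IM3h, 220 to 454 at IM24h and 171 to 211 at IM72h. *Klf15* was lowest at all 3 times (log2 -1.69, -2.27 and -2.17). *Cebpd* was the highest at IM3h (log2 5.33) and IM24h (log2 3.32), and *Cebpb* at IM72h (log2 2.32). Both are C/EBP factors that many cell types induce in inflammation. Of the fat stem and progenitor markers, 4 of 8 rose and 1 fell at IM24h, while 5 of 10 rose and 1 fell at IM72h. *Ly6a*, shared with endothelium and immune cells, rose furthest at IM24h (log2 1.43), *Cd34*, shared with fibroblasts and endothelium, at IM72h (log2 1.89), and *Dpp4* fell at both times (log2 -1.66 and -1.32).

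Of the other secreted proteins of fat, 1 of 12 was lower and 3 were higher at IM3h, 4 of 13 lower and 1 higher at IM24h. At IM72h 3 of 12 were lower, near the 28.3% of all genes called lower, and 4 were higher, with a median log2 change of 0.21. *Adm*, the vasodilator adrenomedullin, fell furthest at IM24h (log2 -2.70, adjusted p = 0.0333), and *Rbp4*, the retinol carrier, at IM72h (log2 -2.32, adjusted p = 0.00132).

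**Figure D3:**
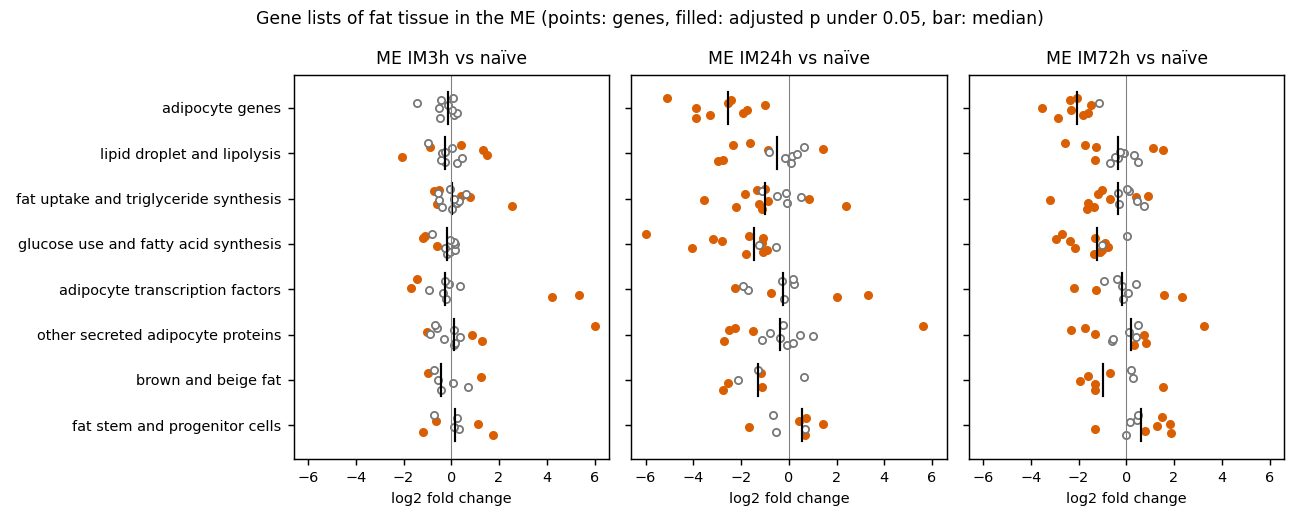
Log2 fold change against naïve mice of every tested gene in 8 lists of fat tissue at IM3h, IM24h and IM72h in the *ME*; points are genes, filled where the adjusted p is under 0.05, and bars are medians. The adipocyte genes and the genes of glucose use and fatty acid synthesis lie below 0 at IM24h with medians of -2.53 and -1.46, while the progenitor markers have a median of 0.54. Without *Lep*, *Retn* and *Pck1*, which passed the filter on low counts only through the naïve libraries, the median of the adipocyte genes is -2.16.

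Markers of other cells were also called at these times. Over all genes, 13.4% were called lower at IM3h, 13.4% at IM24h and 28.3% at IM72h. Called higher were 15.6% at IM24h and 29.3% at IM72h. Of 8 smooth muscle markers, 7 were lower at IM24h (median log2 -1.77) and 4 at IM72h (median -0.49). Macrophage markers were higher in 7 of 9 at IM24h and 9 of 9 at IM72h, and neutrophil markers in 6 of 6 and 7 of 7. Mesothelial markers were lower in 6 of 7 at IM3h (median -3.50), 1 of 8 at IM24h, near the share of all genes, and 6 of 8 at IM72h. Epithelial markers were lower in 3 of 9 at IM24h and higher in 4 of 9 at IM72h, and those of lymphoid tissue were higher in 2 of 3 and 3 of 6. No acinar marker of the pancreas was called at IM3h or IM24h, and 1 of 10 was higher at IM72h. The part of these cells in the fall of the adipocyte genes was not tested. With *AY036118* removed before the fit, 9 of the genes were called lower at IM24h and 8 at IM72h.

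The likeness of other genes to *Adipoq* was taken as Pearson's r of log2 CPM over the 14 *ME* libraries, a description only, in which the group differences carry most of the signal. Of 17918 genes, *Car3*, a carbonic anhydrase abundant in fat and muscle, was most like it (r = 0.984), with a mean of 377 CPM in naïve mice, 260 at IM3h, then 57.0 at IM24h and 81.1 at IM72h. *Fam163a* (r = 0.979), *Atp5c1* (r = 0.974), *Car8* (r = 0.970), *Cox8a* (r = 0.969), *Tecr* (r = 0.968), *Sdhb* (r = 0.967), *Slc25a4* (r = 0.966), *Cox6c* (r = 0.965) and *Wfdc1* (r = 0.965) followed. *Atp5c1*, *Cox8a*, *Sdhb* and *Cox6c* encode parts of the mitochondrial respiratory chain and *Slc25a4* the ADP/ATP carrier, which are not particular to fat. Of the adipocyte genes, *Cfd* came closest at rank 13 (r = 0.963), and *Plin1* at rank 186 (r = 0.912), *Cidec* at 383, *Lep* at 577, *Fabp4* at 687, *Retn* at 935, *Lpl* at 938 and *Pck1* at 1763 (r = 0.693) were further off. *Adrb3* was at rank 5044 (r = 0.384).

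*Adrb3* (ENSMUSG00000031489.15, chr8:27225776-27250616) followed another course. It stood at 50.7, 43.4 and 51.3 CPM in naïve mice, 10.5, 4.42 and 8.13 at IM3h, then 15.5, 3.40, 9.55 and 23.7 at IM24h and 23.2, 34.1, 38.0 and 25.7 at IM72h. All IM libraries lay below the naïve libraries, and the lowest mean was that of IM3h, 7.70 CPM, in libraries whose *Adipoq* levels overlapped with naïve mice. It was 6.06-fold lower at IM3h (log2 -2.60, SE 0.26, adjusted p = 5.00e-05), 3.73-fold lower at IM24h (log2 -1.90, SE 0.47, adjusted p = 0.0128) and 1.64-fold lower at IM72h (log2 -0.71, SE 0.17, adjusted p = 0.00425). The value at IM72h depended on scaling, with a log2 change of -0.12 (adjusted p = 0.620) when libraries were scaled by their total and of -1.31 (adjusted p = 0.000375) with the reference genes. At IM24h it was -1.27 with the library total (adjusted p = 0.0458) and -2.11 with the reference genes, where the call was lost (adjusted p = 0.0531). The difference from IM24h to IM72h was 1.18 (SE 0.43, adjusted p = 0.0512), and it was called with DESeq2 (adjusted p = 0.0236) and without IM24h library 2 (0.0390) or 4 (0.00775). Of the 5 adrenergic receptors tested, *Adrb3* included, 3 were lower and 0 higher at each time. Of all genes, 13.4%, 13.4% and 28.3% were called lower at IM3h, IM24h and IM72h. *Adra2b* was the lowest receptor at IM3h (log2 -2.83, adjusted p = 0.000390). Receptors that passed the filter on low counts only through the naïve libraries were not set apart.

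The ratio of *Adrb3* to *Adipoq* counts within a library needs no scaling. It was 0.640 to 0.854 in naïve mice, 0.154 to 0.196 at IM3h, then 2.20 to 5.16 at IM24h and 1.46 to 6.90 at IM72h. The naïve and IM3h ranges overlapped neither each other nor a later range, and the IM24h and IM72h libraries overlapped each other. Against naïve mice the ratio was 4.42-fold lower at IM3h (exact permutation test, two-sided, p = 0.100, adjusted p = 0.160), 4.48-fold higher at IM24h and 4.90-fold higher at IM72h (both exact p = 0.0571, adjusted p = 0.125). With 3 against 3 and 4 against 3 libraries these are the smallest p-values the test can give, so that 0.05 could not be reached, and the adjustment covers 24 tests of 6 ratios.

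Ratios among the adipocyte genes were taken in the same way. *Plin1* to *Adipoq* was 0.358 to 0.426 in naïve mice and 0.387 to 0.441 at IM3h, and *Lpl* to *Adipoq* was 2.59 ± 0.36 (SD, n = 3) and 3.25 ± 0.057 (SD, n = 3). *Cidec* to *Adipoq* spread from 0.396 to 1.02 at IM3h, and there the *Lpl* and *Cfd* ratios lay above all naïve libraries (exact permutation p = 0.100 for each, adjusted p = 0.160). At IM24h the *Plin1* and *Lpl* ratios were 0.745 to 5.67 and 11.2 to 85.9, above all naïve libraries (exact permutation p = 0.0571 for each, adjusted p = 0.125). *Lpl* was 10.4-fold and *Fabp4* 6.33-fold higher relative to *Adipoq* at IM24h than in naïve mice. Without IM24h library 2 the log2 difference of the *Fabp4* ratio was 2.06 and that of the *Plin1* ratio 1.27, against 2.66 and 1.91. The highest of these ratios belonged to IM24h library 2, which held 9 counts of *Adipoq*. *Cfd* to *Adipoq* at IM24h, 3.14 to 14.2, overlapped the naïve range of 3.20 to 4.31 (exact permutation p = 0.229, adjusted p = 0.274).

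**Figure D4:**
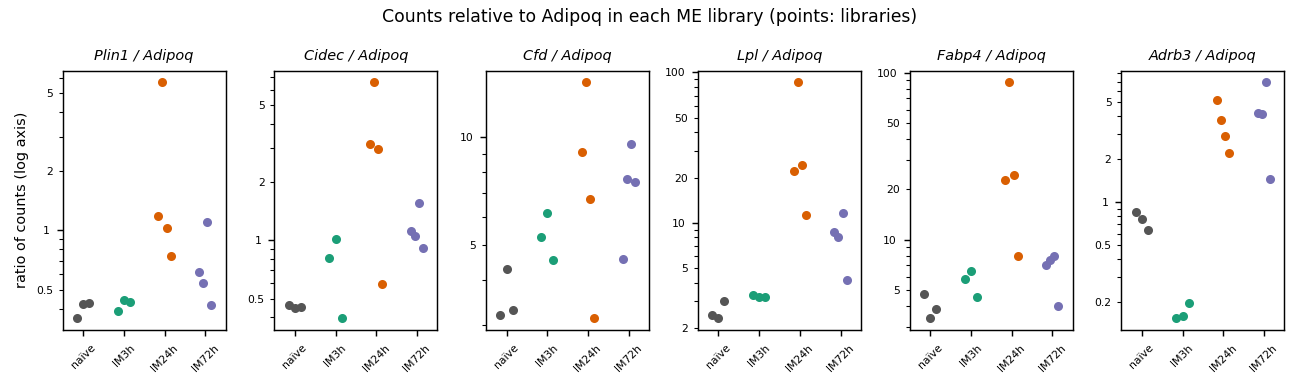
Ratio of the counts of 6 genes to those of *Adipoq* within each *ME* library (log axes) for naïve mice, IM3h, IM24h and IM72h; points are libraries. *Adrb3* to *Adipoq* lies at 0.154 to 0.196 at IM3h, below the naïve range of 0.640 to 0.854, and at 1.46 to 6.90 at IM72h.

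Whether *Adrb3* follows *Adipoq* from library to library was asked within groups. Since the *ME* libraries fall into 2 sets by *Adipoq*, naïve with IM3h and the later groups, the relation was taken on deviations of log2 CPM from the group means. Over 14 libraries Pearson's r was 0.77 (permutation p = 0.00286, adjusted p = 0.0114 over 4 relations) and Spearman's rho 0.57 (permutation p = 0.0344, adjusted p = 0.138). Without the 2 libraries farthest from the median r was 0.27 (permutation p = 0.388, adjusted p = 0.777) and the relation rested on those libraries. For *Plin1* r was 0.39 (permutation p = 0.169, adjusted p = 0.339) and rho 0.43 (permutation p = 0.123, adjusted p = 0.246). Deviations were permuted across groups although those of a group sum to 0, so these p-values are approximate. With group means left in, r of *Adrb3* and *Adipoq* was 0.38 (permutation p = 0.178, adjusted p = 0.712).

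In naïve mice the adipocyte genes were lower in *RiboTag* than in *ME* RNA, in 7 of 8 tested genes, with 12.7% of all genes called lower. *Adipoq*, *Cidec*, *Retn* and *Pck1* passed the filter on low counts only through the *ME* libraries, so their values are a description, and the other 4 were all called. *Fabp4* was 10.5-fold lower (log2 -3.39, SE 0.41, adjusted p = 0.000724), *Adipoq* 14.1-fold (log2 -3.82, SE 0.82, adjusted p = 0.00953) and *Plin1* 4.26-fold (log2 -2.09, SE 0.34, adjusted p = 0.00286). *Cidec*, *Cfd*, *Retn* and *Lpl* were 12.2-fold, 7.54-fold, 9.16-fold and 5.64-fold lower. The 4 that are not a description, *Plin1*, *Cfd*, *Lpl* and *Fabp4*, lay below the *ME* libraries without overlap, as did 24.8% of all genes. The call of *Retn* (adjusted p = 0.0180) was lost without any one of the 3 *ME* libraries, with an adjusted p of 0.0523 to 0.0694, with DESeq2 (0.0580) and with the reference genes (0.0604). Without naïve *RiboTag* library 2 the log2 difference was -5.22 for *Adipoq*, -4.69 for *Cidec*, -4.06 for *Fabp4* and -3.54 for *Cfd*, and without library 3 it was -3.79 for *Retn*. *Pck1* did not pass (log2 -2.34, SE 1.02, adjusted p = 0.124). The mouse lines of the 2 fractions differ in the naïve state, so fraction and line cannot be told apart. *Adrb3* was 3.85-fold lower in *RiboTag* RNA (log2 -1.94, SE 0.40, adjusted p = 0.00785), a call that was lost with scaling by the library total (log2 -1.20, adjusted p = 0.0545).

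The adipocyte genes were counted sparsely in *RiboTag* RNA. *Adipoq* had 0, 71 and 23 counts in naïve mice, 1, 0, 16 and 0 at IM3h, then 13, 0, 38 and 0 at IM24h and 0 in all 4 libraries at IM72h. *Plin1* had 37, 32 and 53 counts, then 18, 36, 14 and 16, then 26, 49, 25 and 3, and at IM72h 1, 0, 1 and 121. One library thus held nearly all *Plin1* counts at IM72h, and likewise *Fabp4* had 937, 147, 31 and 1 counts there and *Lep* 0, 0, 28 and 0. At IM24h 2 of the 10 genes, *Lep* and *Pck1*, and at IM72h 2, *Adipoq* and *Cidec*, were at 0 in every library.

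Against naïve *RiboTag* libraries, 1 of 7 tested genes was called at IM3h, with 4.44% of all genes called lower, 0 of 6 at IM24h, with 0.497% called in either direction, and 0 of 7 at IM72h, with 16.1%. At IM24h and IM72h 0 genes had an unadjusted p under 0.05, and DESeq2 called 0 and 1. The 1 gene was *Cfd*, at 9.98, 40.3 and 21.9 CPM in naïve mice and 6.30, 5.04, 3.35 and 8.64 at IM3h, with no overlap, as in 14.3% of all genes (log2 -1.97, SE 0.51, adjusted p = 0.0236). The call was lost without naïve library 2 (adjusted p = 0.182) or 3 (0.0723) and without IM3h library 1 (0.0511), 2 (0.0652) or 3 (0.0673). The log2 change was -1.37 without naïve library 2 and -2.59 with the reference genes. *Adrb3* had 35, 80 and 136 counts in naïve mice, 64, 38, 41 and 26 at IM3h, then 103, 0, 0 and 0 at IM24h and 0, 64, 18 and 26 at IM72h, and was called at no time, with an adjusted p of 0.212, 0.810 and 0.927. All *RiboTag* libraries came from 1 mouse line, and the SE of the log2 change reached 2.06 at IM24h and 2.30 at IM72h, against at most 1.14 in the *ME* comparisons with naïve mice.

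*Ucp1* was detected in every *RiboTag* library at IM72h and in 1 of the 4 *ME* libraries of that time. It had 29, 32, 53 and 26 counts in the 4 *RiboTag* libraries at IM72h, against 0, 21 and 0 in naïve, 0, 12, 0 and 0 at IM3h and 0, 0, 23 and 0 at IM24h libraries. Against *ME* RNA at IM72h, with 1 count or fewer per library, it was at least 37.8-fold higher as a share of the library total, taking 3 counts in each *ME* library as the floor. Without *RiboTag* IM72h library 3 this bound was 30.9-fold. *Ucp1* passed the filter on low counts only through the *RiboTag* libraries, so its call between the fractions is given as a description. Against naïve *RiboTag* libraries it was not called (adjusted p = 0.251). Of 2217 genes with at most 3 counts in every *ME* library at IM72h, 7 had 20 or more counts in every *RiboTag* library at IM72h and 9 in every naïve *RiboTag* library. *AY036118* took 58.0% to 80.1% of the counts in these 4 libraries, and its part in the *Ucp1* counts was not tested.

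At IM72h 3 of 9 genes were called between the fractions, with 26.5% of all genes called lower and 4.2% higher in *RiboTag* RNA. These were *Ucp1*, higher in *RiboTag* RNA, and *Adipoq* and *Cidec*, lower. All 3 passed the filter on low counts only through the fraction where they are high, so nothing is read from the count. *Adipoq* and *Cidec* were at 0 in the *RiboTag* libraries, and against 3 counts per library *ME* RNA was at least 3.97-fold and 4.28-fold higher as a share of the total without *AY036118*. Without *ME* IM72h library 4 these bounds were 2.79-fold and 3.40-fold. As a share of the whole library total the bounds were 12.6-fold and 13.5-fold, or 8.78-fold and 10.7-fold without that library. At IM24h 1 of 6 was called, with 6.38% of all genes called lower. This was *Fabp4*, 4.68-fold lower in *RiboTag* RNA (log2 -2.23, SE 0.36, adjusted p = 0.00352), at 107, 36, 30 and 56 counts against 731, 786, 883 and 745 in the *ME*. The log2 difference of *Fabp4* was -3.03 with the library total and -3.23 with the reference genes. *Adipoq* at IM24h did not differ beyond its spread (log2 0.34, SE 1.54, adjusted p = 0.911).

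**Figure D5:**
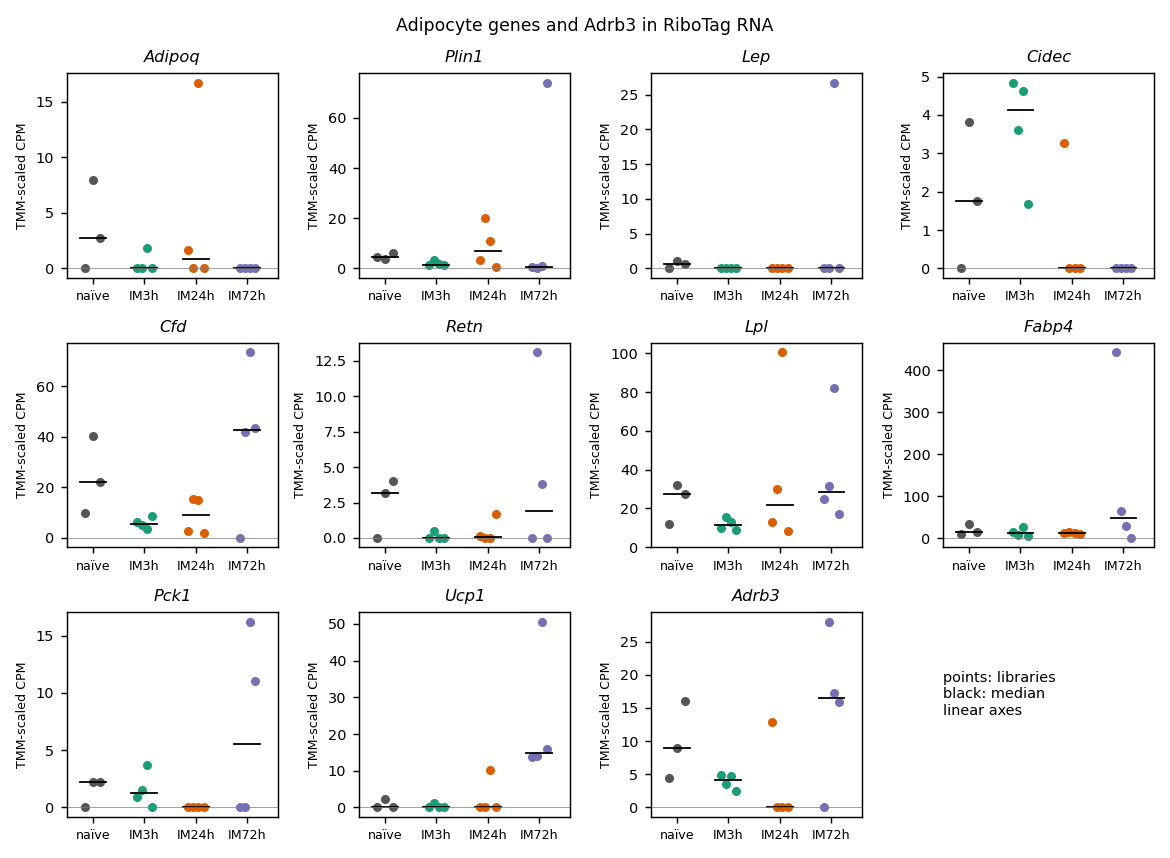
Levels of the 10 adipocyte genes and *Adrb3* in each *RiboTag* library (TMM-scaled CPM, linear axes) for naïve mice, IM3h, IM24h and IM72h; points are libraries and black bars the median. *Adipoq* and *Cidec* are at 0 in all IM72h libraries, *Plin1*, *Lep* and *Fabp4* each have 1 library far above the other 3 at IM72h, and *Ucp1* is above 0 in all 4.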

How the data were processed

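*ME* and *RiboTag* libraries were 3′ end libraries of single-end reads that, per the study's methods and the labels, the authors trimmed with cutadapt, aligned with STAR to mm10 and quantified in Partek Flow. The deposited tables hold estimated counts, which the authors made without scaling for library size, per gene for the *ME* and per transcript for the *RiboTag* fraction, and list features with a total of at least 10 counts. A 3′ end library counts a transcript about once whatever its length, so levels are compared between libraries and not between genes. Tables of the authors' comparisons (fold changes and p-values) were not used.

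Groups were read from the group entry of each library. Library names match no sample label, and libraries are numbered within a group in name order. Of the 4 naïve *RiboTag* samples in the labels, 3 libraries are in the tables, and all 3 *RiboTag* comparisons share them.

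Transcript counts were summed by symbol, rounded to whole numbers and fitted in edgeR 4.0.16 (R 4.3.3) with TMM scaling, the filterByExpr filter and its two-sided quasi-likelihood test. Each of 10 comparisons used only its own groups. The SE of a log2 change is its size divided by the root of the F statistic. CPM are scaled by TMM over all libraries of a fraction, and log2 CPM used a prior count of 2. Alternatives were DESeq2 1.42.0, scaling by the library total, scaling by 3 reference genes, no filter, *ME* counts summed from the transcript table, removal of *AY036118* and leaving out each library. The fits were tested on simulated data. Ratios were tested on log2 values by exact permutation tests, and relations with 100000 permutations (scipy 1.17.1).

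The genes and the 18 gene lists were chosen with earlier results of these data known. Named are the 10 genes and *Adrb3*, the largest rise and fall among called genes of a list, and the 10 genes most like *Adipoq*. The largest rise in the list of other secreted proteins is not reported here. Ratios, the removal of *AY036118* in the *ME*, bounds without it and the count of genes that passed the filter through 1 group only were chosen after seeing the data. A group at 3 counts or fewer in every library is at the floor, which covers counting error only. Coordinates are those of GENCODE for mm10.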

Additional observations from a re-analysis of the deposited data

Results flagged for a closer look

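In groups of 4 libraries, 1 library stood far from the other 3 by Dixon's test in 14 of 61 cases, of which 13 were levels in *RiboTag* RNA. The test assumes normally spread values, and the cases share libraries. The count can thus not be set against the 1 in 20 that the test gives by chance. In *RiboTag* RNA at IM3h these were *Adipoq* in library 3 (1.85 CPM), and *Plin1* (3.42 CPM), *Retn* (0.475 CPM) and *Ucp1* (1.14 CPM) in library 2. At IM24h they were *Adipoq* (16.7 CPM) and *Ucp1* (10.1 CPM) in library 3, *Cidec* (3.26 CPM) and *Adrb3* (12.9 CPM) in library 1 and *Retn* in library 4 (1.71 CPM). At IM72h they were *Plin1* in library 4 (74.1 CPM), *Lep* (26.7 CPM) and *Ucp1* (50.6 CPM) in library 3 and *Fabp4* in library 1 (443 CPM). In most of these cases the other 3 libraries were at or near 0. In the *ME*, the ratio of *Plin1* to *Adipoq* at IM24h was 5.67 in library 2, which had 9 counts of *Adipoq*.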

How the results depend on the processing

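The counts of called genes at IM24h (6 to 9) and IM72h (8 to 9) in the *ME* and in naïve *RiboTag* against *ME* RNA (6 to 7) stayed within 1.5 times under all alternatives. At IM3h in the *ME* the count of 0 became 1 with DESeq2, the library total or no filter, 3 with the reference genes and 0 to 2 without 1 library. From IM24h to IM72h the count of 3 became 1 with the reference genes and 1 to 4 without 1 library. The count of 1 in *RiboTag* RNA at IM3h became 0 to 1 without 1 library. At IM72h the count of 0 became 1 with DESeq2 and 0 to 1 without 1 library, and between the fractions at IM24h the count of 1 became 1 to 2.

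Scaling by the library total moved the median of all genes by 0.64 at IM24h and 0.60 at IM72h, the reference genes by -0.37 and -0.60. With the library total 8 of 9 called log2 changes at IM24h, 3 of 8 at IM72h and 7 of 7 between the naïve fractions moved toward 0 by over 1.5 times. With the reference genes *Lep* (log2 -4.16) and *Lpl* (log2 -2.08) at IM72h moved away from 0 by over 1.5 times. Directions turned only for genes that were not called, and the cause was not tested. At IM3h in the *ME* log2 values were, with the library total and the reference genes, -0.042 and -0.18 for *Cidec*, -0.16 and -0.29 for *Cfd*, -0.20 and -0.33 for *Retn* and -0.26 and -0.38 for *Fabp4*. Without 1 library they ranged from -0.37 to 0.55 for *Cidec*, -0.34 to 0.27 for *Cfd*, -0.41 to 0.29 for *Retn*, -0.46 to 0.21 for *Fabp4*, -2.21 to 0.51 for *Lep* and -0.60 to 0.11 for *Lpl*. From IM24h to IM72h *Plin1* was at -0.23 with the reference genes and at -0.13 to 0.38 without 1 library, and *Cidec* at -0.040 to 0.46. *Adrb3* in *RiboTag* RNA at IM72h was at -1.16 with the library total and -1.02 with the reference genes, against 0.65. At IM24h in the *ME* the reference genes lost the calls of *Adrb3* (adjusted p = 0.0531), *Lep* (0.0504), *Lpl* (0.0715) and *Pck1* (0.0756), and the library total those of *Lpl* (0.294) and *Pck1* (0.0597). At IM72h *Pck1* was called with the reference genes (0.0152). From IM24h to IM72h the reference genes lost *Cfd* (0.151) and *Fabp4* (0.113), and no filter lost *Fabp4* (0.0602) and called *Adrb3* (0.0416).

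Over all *ME* libraries, which fall into 2 sets, Pearson's r of *Adrb3* and *Adipoq* was 0.38, 0.77 on deviations from group means and -0.0091 without the 2 libraries farthest from the median. In naïve and IM3h *ME* libraries alone it was 0.77 with *Adipoq* and 0.73 with *Plin1* (n = 6, adjusted permutation p = 0.101 for each). In *RiboTag* libraries r was -0.0027 with *Adipoq* and 0.23 with the library total, 0.15 on deviations, 0.34 and 0.31 without the 2 libraries farthest from the median and 0.76 in naïve and IM3h libraries alone. With *Plin1* it was -0.038 and in the same order 0.18, 0.069, 0.091 on deviations without those 2 libraries and 0.65, and none of these passed.

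No paired analysis was possible because the libraries in the tables carry no replicate numbers. Sparse counts limit all *RiboTag* results.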
